A study of Mus musculus with 6 samples.

Results

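The Slc2a genes encode the facilitative hexose transporters of the GLUT family, membrane proteins that let sugars cross the cell membrane down their concentration gradient. Of the family, 10 genes were taken by name (Slc2a1, Slc2a3, Slc2a4, Slc2a5, Slc2a6, Slc2a8, Slc2a9, Slc2a10, Slc2a12 and Slc2a13) and matched to the array through the RefSeq accession of each probe. Slc2a12 had no matching probe, so 9 of the 10 genes were read, by 10 probes among the 55681 gene probes of the array. All 10 probes passed the filter on dim probes, and the 9 genes stood among 22500 genes tested. The set was chosen by the log2 ratio between the genotypes, which was already known for Slc2a6, so this ratio is given as a description, and any test of it below is not independent of that choice.

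The arrays compared tumor cells from MMTV-PyMT mice, in which a mammary promoter drives the polyoma middle T oncogene and luminal mammary carcinomas arise. The cells of one group were null for RANK (RANK-/-), the receptor encoded by Tnfrsf11a, and those of the other were wild type for it (RANK+/+), both in the C57BL/6 strain. Late carcinoma cells were transplanted into the mammary site of syngeneic C57BL/6 hosts, and the tumors were dissociated and sorted for live cells without the leukocyte antigen CD45. RNA from 3 sorted samples of each genotype was amplified and hybridized in 3 pairs, a RANK-/- and a RANK+/+ RNA together on an array with 2 dyes, with 2 technical arrays (A and B) for each pair. The labels call the 3 RNAs of a genotype biological replicates but do not say how many donor tumors they came from, so the spread given below is that between these RNAs.

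The directions below rest on the labels, and the deleted gene itself went against them. The probe of Tnfrsf11a read 2.03, 1.15 and 1.76 on the log2 scale higher in the channel labeled RANK-/- in pairs 1, 2 and 3, and each of the 6 arrays measured it well above background for either genotype. Which part of the transcript the deletion leaves was not examined here, so the channels are called by their labels throughout. Of 9 luminal markers, 8 (Epcam and Cdh1 among them) were well above background for both genotypes on all 6 arrays, and Krt8 passed on 5 arrays for each genotype. Ptprc, which encodes CD45, still passed that limit for RANK-/- on 5 arrays and for RANK+/+ on 4.

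Members of the family differ in the sugar they carry and in where they sit. GLUT1 and GLUT3 (Slc2a1, Slc2a3) take up glucose at rest in many tissues and in tumors, GLUT4 (Slc2a4) is moved to the surface of fat and muscle cells by insulin, and GLUT5 (Slc2a5) carries fructose. GLUT6 and GLUT8 (Slc2a6, Slc2a8) are held mainly inside the cell, GLUT9 (Slc2a9) carries urate, GLUT10 (Slc2a10) is linked to the arterial tortuosity syndrome, and the Slc2a13 product carries myo-inositol together with protons.

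Promoter sequences of 8 of the 10 genes were found in the RefSeq promoter table (build GRCm38.p6), and those of Slc2a6 and Slc2a1 are shown because these genes lay at opposite ends of the family in the arrays. Each runs from 250 bases before to 50 bases after the listed start, in the orientation of the table, for Slc2a6 at chr2:27027949-27028248 on the minus strand and for Slc2a1 at chr4:119108495-119108794 on the plus strand. Capitals mark the CCAAT box, the core of the hypoxia response element (ACGTG) and the TATA box (TATAAA), searched on both strands with overlaps counted.
Slc2a6: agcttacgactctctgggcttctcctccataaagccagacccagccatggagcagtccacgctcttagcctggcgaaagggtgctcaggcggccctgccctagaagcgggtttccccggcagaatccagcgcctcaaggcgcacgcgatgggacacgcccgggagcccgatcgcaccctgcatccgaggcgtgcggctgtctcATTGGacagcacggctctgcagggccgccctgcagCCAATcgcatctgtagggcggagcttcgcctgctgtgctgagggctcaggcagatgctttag
Slc2a1: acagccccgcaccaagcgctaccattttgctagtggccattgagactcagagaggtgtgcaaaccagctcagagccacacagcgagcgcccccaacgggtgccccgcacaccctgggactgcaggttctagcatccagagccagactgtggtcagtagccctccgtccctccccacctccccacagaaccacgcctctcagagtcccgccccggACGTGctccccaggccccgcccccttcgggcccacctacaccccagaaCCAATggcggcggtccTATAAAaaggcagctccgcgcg
The Slc2a6 sequence held CCAAT 2 times, once on each strand, and neither of the other motifs. The Slc2a1 sequence held each of the 3 once. Its CCAAT and TATAAA matches lay within the 50 bases after the listed start, with TATAAA near the end. Of the 8 promoters, 4 held CCAAT (Slc2a1, Slc2a6, Slc2a8 and Slc2a10), against 37.4% of 32851 promoters in the table. The hypoxia response core was in those of Slc2a1 and Slc2a10, against 19.6% of all promoters, and of the 8 only that of Slc2a1 held the TATA box, against 13.6%. A match describes letters in this window and is no evidence of binding.

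Slc2a6 was the member with the largest difference between the genotypes. It is read by 2 probes, of which the brighter one stood for the gene. Its channel level, the log2 of the normalized intensity, was 10.92, 11.53 and 9.75 in the RNAs labeled RANK-/- of pairs 1, 2 and 3. In the RNAs labeled RANK+/+ it was 9.20, 9.97 and 7.19. The RANK-/- RNA was the higher one in each pair, but the groups overlapped, since the RANK-/- RNA of pair 3 lay below the RANK+/+ RNA of pair 2.

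The log2 ratio of the channel labeled RANK-/- over that labeled RANK+/+ was therefore 1.71, 1.56 and 2.55, folds of 3.28, 2.96 and 5.87. The mean was 1.94 ± 0.53 (SD, n = 3 pairs; SE 0.31), a fold of 3.85. Among the 22500 genes the mean ranked 7 from the top. Levels that did not overlap between genotypes, with RANK-/- the higher, were seen in 3.66% of all genes (3.82% with RANK-/- the lower), and no Slc2a gene was among either. A ratio of at least 2-fold higher in all 3 pairs was found in 9 genes or 0.04%, of which Slc2a6 was one, and at least 2-fold lower in 0.0489%.

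For the bright Slc2a6 probe the technical arrays differed far less than the pairs. Single-array ratios of the bright Slc2a6 probe ran from 1.55 to 2.62, and A and B differed by at most 0.13 within a pair. The unprocessed median spot brightness was 670.5 to 2773 in the channel labeled RANK-/- and 194 to 1233.5 in the other, over local backgrounds of 31 to 72. RANK-/- RNA carried Cy5 in pair 1 and Cy3 in pairs 2 and 3, so the higher signal was seen with either dye.

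**Figure D1:**
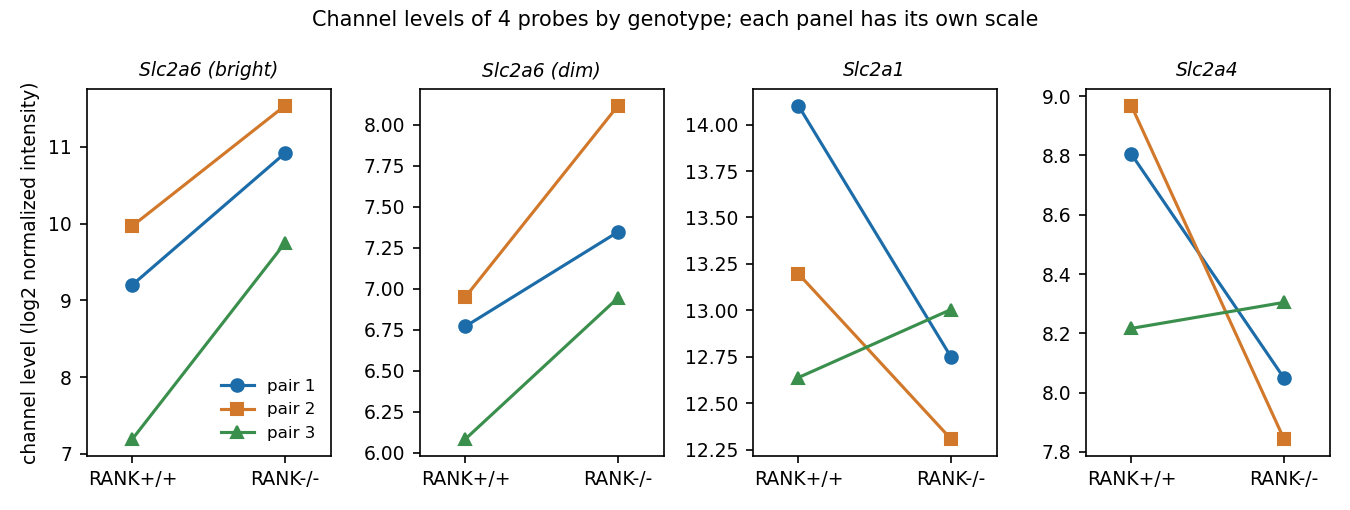
Channel levels (log2 normalized intensity, y axis) of both Slc2a6 probes, Slc2a1 and Slc2a4 by labeled genotype, with a line for each of the 3 pairs and a separate scale in each panel. All lines of both Slc2a6 probes rise from RANK+/+ to RANK-/-, while those of Slc2a1 and Slc2a4 fall in pairs 1 and 2 and rise in pair 3.

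The dimmer Slc2a6 probe, matched to the same RefSeq transcript, had the same direction and a smaller ratio. Its channel level was 7.35, 8.12 and 6.95 in the RNAs labeled RANK-/-, and 6.77, 6.95 and 6.08 in those labeled RANK+/+. The ratios were 0.58, 1.17 and 0.86, with a mean of 0.87 ± 0.30 (SD, n = 3 pairs). Arrays A and B of this probe differed by 0.006, 0.31 and 0.21 in pairs 1, 2 and 3. In pair 2 that difference was no smaller than the SD between pairs. Both probes placed pair 2 highest and pair 3 lowest among the RNAs of each genotype. The dim probe passed the background limit for RANK+/+ on 4 of 6 arrays, the 2 misses being both arrays of pair 3, so its ratio in that pair was measured against a signal near background.

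The gap between the probes depended on how the background was treated. It was 1.08 on the log2 scale with an offset of 50 added to each intensity before the ratio, 0.65 with no offset, and 0.34 with the scanner's own processed signals. The bright probe moved from 1.94 to 2.14 and 2.20 under those settings, and the dim probe from 0.87 to 1.49 and 1.86. In the plot of both probes by processing, the bright probe therefore shifted little and the dim one by more than the SD between its pairs.

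**Figure D2:**
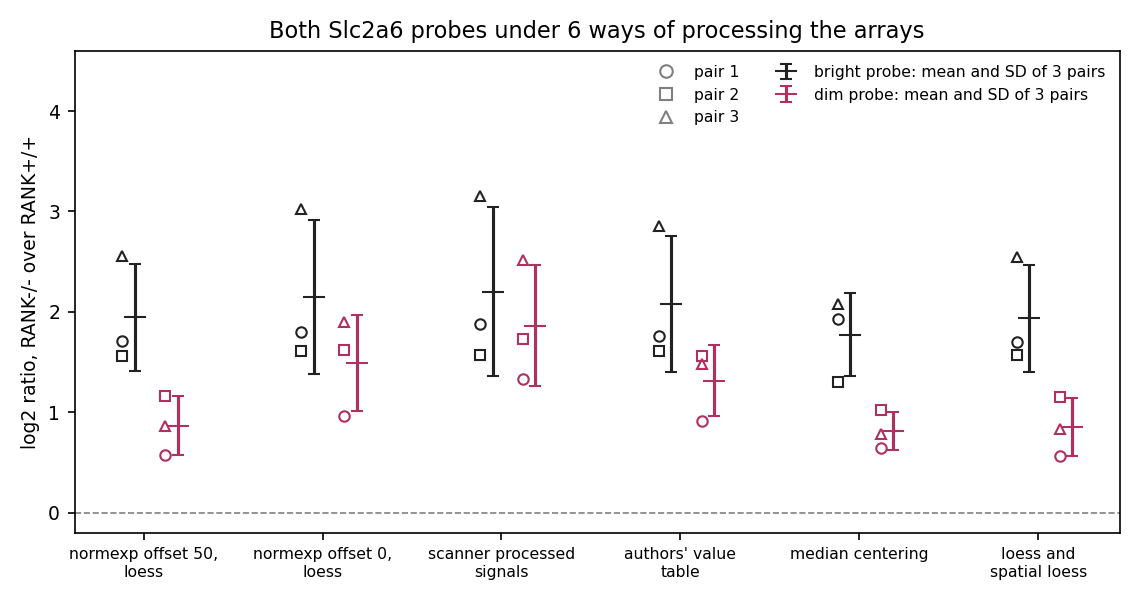
Log2 ratios (RANK-/- over RANK+/+, y axis) of the bright and the dim Slc2a6 probe under 6 ways of processing, with open symbols for pairs 1 to 3 and a dash with bars for the mean and SD of the 3 pairs. Every pair lies above 0 for both probes, and the means lie closest together for the scanner's processed signals (2.20 and 1.86).

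Slc2a1, the main carrier of basal glucose uptake, differed in direction between pairs. Its channel level was 12.75, 12.31 and 13.00 in the RNAs labeled RANK-/- and 14.10, 13.20 and 12.64 in those labeled RANK+/+. Pairs 1 and 2 were lower in RANK-/- and pair 3 was higher, and the groups overlapped. The ratios of -1.35, -0.89 and 0.37 gave a mean of -0.63 ± 0.89 (SD, n = 3 pairs), a spread larger than the mean. With each array centered on its median in place of loess, pair 3 turned to -0.36 and the mean became -0.90, while the median of all genes in pair 3 moved to -0.39.

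Slc2a4, the insulin-responsive carrier, showed the same signs by pair. Its probe is printed 10 times on each array, of which 8 to 10 spots entered the ratio. The level was 8.05, 7.84 and 8.30 in the RNAs labeled RANK-/- and 8.80, 8.97 and 8.22 in the others, so the groups overlapped only through pair 3. The ratios were -0.75, -1.12 and 0.09 (mean -0.60 ± 0.62), against an SD among spots of one array of 0.061 to 0.101. Median centering turned pair 3 to -0.36 here too. The spots of 1 array thus differed by less than the pairs did.

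Slc2a3, the other high-affinity glucose carrier, and the fructose carrier Slc2a5 stayed near 0. Slc2a3 had levels of 6.54, 7.12 and 6.72 in the RNAs labeled RANK-/- and 6.61, 7.11 and 6.84 in the others. Its ratios of -0.07, 0.01 and -0.12 averaged -0.06 ± 0.07. Slc2a5 was dim, with levels of 6.27 to 6.38 over the 6 RNAs, and passed the background limit for RANK-/- on 6 arrays and for RANK+/+ on 5. Its mean ratio was 0.01 ± 0.07, and its sign turned under other settings. At such levels the offset of 50 draws ratios toward 0, so a small ratio is no evidence of equal expression.

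Slc2a8, like Slc2a6 a carrier of internal membranes, was bright and inconsistent in direction. The level was 11.33, 12.08 and 11.47 in the RNAs labeled RANK-/- and 11.67, 11.64 and 11.10 in those labeled RANK+/+. Its ratios were -0.34, 0.43 and 0.37, with a mean of 0.16 ± 0.43 that median centering turned to -0.07. The median of all genes was then -0.14. With loess the 2 intracellular carriers thus had opposite signs in pair 1 and the same sign in pairs 2 and 3. Median centering turned pair 3 of Slc2a8 to -0.24, where the median of all genes was -0.39.

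Slc2a9, the urate carrier, had a large ratio in one pair only. Its level was 8.82, 8.18 and 8.12 in the RNAs labeled RANK-/- and 7.43, 8.28 and 7.92 in the others. The ratio was 1.39 in pair 1, -0.10 in pair 2 and 0.20 in pair 3, with a mean of 0.49 ± 0.79. Without pair 1 the mean fell to 0.05, so the mean rested on that pair. Arrays A and B of pair 1 gave 1.34 and 1.43.

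Slc2a10 and Slc2a13 had small ratios of one sign. Slc2a10 had levels of 8.57, 8.04 and 8.06 in the RNAs labeled RANK-/- and 8.33, 7.77 and 7.79 in the others, with ratios of 0.25, 0.26 and 0.27 (mean 0.26 ± 0.01). Slc2a13, the myo-inositol carrier, had levels of 7.13, 6.85 and 6.87 against 6.96, 6.77 and 6.71, with ratios of 0.17, 0.08 and 0.16 (mean 0.13 ± 0.05). The RANK-/- RNA was the higher in each pair for both genes, but the genotypes overlapped. The size depended on the background treatment, with means of 0.44 for Slc2a10 and 0.39 for Slc2a13 from the scanner's processed signals. For Slc2a10 the arrays A and B of one pair differed by up to 0.16, more than the 3 pair values differed from each other. With median centering Slc2a10 read 0.41, 0.10 and -0.14, and Slc2a13 was above 0 in pair 1 alone. The medians of all genes were then 0.13, -0.19 and -0.39 in pairs 1, 2 and 3. Relative to the median of all gene means, Slc2a10 lay 0.26 higher and Slc2a13 0.21 higher, against 0.25 and 0.13 with loess.

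**Figure D3:**
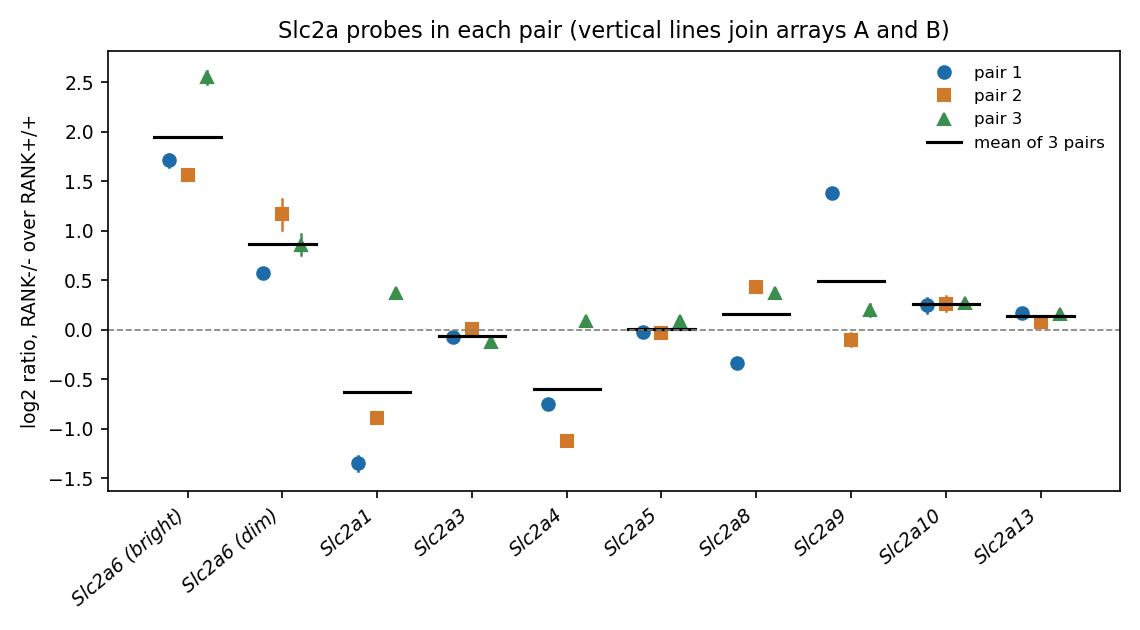
Log2 ratios (RANK-/- over RANK+/+, y axis) of the 10 Slc2a probes, with symbols for pairs 1 to 3, vertical lines joining technical arrays A and B, and a black bar for the mean. Slc2a6 lies above 0 in all pairs with both probes, Slc2a1 and Slc2a4 cross 0, and the mean of Slc2a9 is drawn up by pair 1.

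Over the 9 genes, 3 (Slc2a6, Slc2a10 and Slc2a13) were above 0 in all 3 pairs and none was below. Of all genes 9.93% were above 0 in all pairs and 9.65% below. With median centering, which moved the median of all genes to -0.14, the count was 1 above (Slc2a6) and 3 below (Slc2a1, Slc2a3 and Slc2a4), against 3.81% and 15.4% of all genes. The median of the mean ratios was 0.13 over the 9 genes and 0.00 over all genes. The SD between pairs was above the median of all genes (0.33) for 5 of the 9, Slc2a1, Slc2a4, Slc2a6, Slc2a8 and Slc2a9. The remaining family genes Slc2a2 and Slc2a7, known from liver and gut, had 1 probe each that was not well above background on any of the 6 arrays in either channel and were not tested.

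No gene passed an adjusted p of 0.05 by limma with Benjamini-Hochberg adjustment over all 22500 genes (0%), while 647 (2.88%) had an unadjusted p under 0.05, of which those with RANK-/- above made up 1.66% and those with it below 1.22% of all genes. The rank product, which orders each pair's ratios and multiplies the ranks, called 10 genes higher in the channel labeled RANK-/- (0.0444%) and 9 lower (0.04%) at an estimated share of false positives under 0.05. Slc2a6 was in position 5 of the higher list and was the only Slc2a gene called. These values come from the same contrast that chose the gene and add no evidence to it. The call was lost when any 1 pair was left out, with no offset, with the scanner's processed signals, with the mean over both probes, and on arrays B alone.

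**Figure D4:**
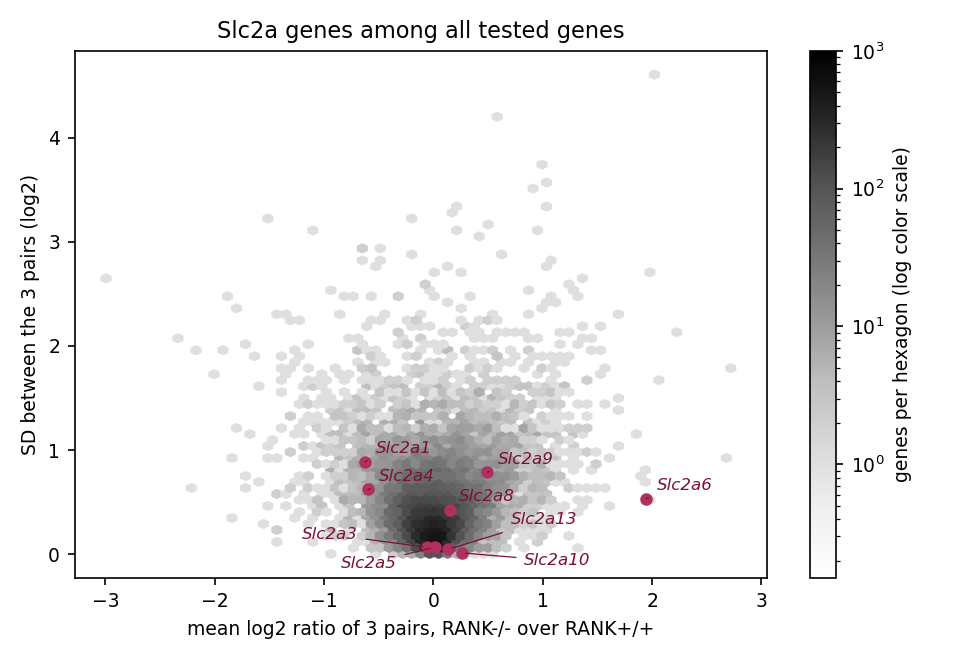
Mean log2 ratio of the 3 pairs (RANK-/- over RANK+/+, x axis) against the SD between pairs (y axis), with all tested genes as gray hexagons on a log color scale and the 9 Slc2a genes as points. Slc2a6 stands at 1.94 with an SD of 0.53, and the other Slc2a genes lie between -0.63 and 0.49.

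The genes with pair ratios most like those of Slc2a6, by root mean square difference over the 3 pairs among 22500 genes, were H2-DMb1 (0.389), Comp (0.431), Sod3 (0.499), Cpd (0.539) and Tnfrsf11a (0.550). H2-DMb1 encodes a chaperone subunit for peptide loading of class II molecules, and its ratios were 1.41, 1.04 and 2.25. Comp, a matrix protein of cartilage and fibrous tissue, had ratios of 2.23, 1.03 and 2.52. Sod3, the secreted superoxide dismutase, had 0.92, 1.23 and 2.64. Cpd, a carboxypeptidase of the secretory pathway, had 1.60, 0.81 and 2.01. All 5 were above 0 in every pair, but they were picked for closeness to Slc2a6, so the shared sign follows from that choice. It held with median centering of the same arrays, and the likeness rests on only 3 values a gene.

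Transcripts of other cell types moved between the channels as well, and in bulk RNA fewer cells of a type and less RNA per cell cannot be told apart. The summed normalized intensity of 8 fibroblast markers, all tested, was 139790 to 225233 in the channel labeled RANK-/- and 47798 to 143029 in the other. Its log2 ratio was 0.17 in pair 1, 0.83 in pair 2 and 2.24 in pair 3. The sum of 15 leukocyte and macrophage markers, 14 of them tested, was 20633 to 23826 against 12647 to 23007. Its log2 ratios were 0.32, -0.08 and 0.71. A sum weighs the brightest markers most, and the median ratios of these markers were -0.43, 0.25 and 0.22. Sum and median thus had opposite signs in pairs 1 and 2. The sum of the 9 luminal markers, all tested, was 236722 to 772522 against 330283 to 618645, with ratios of 1.05, -1.39 and 1.11. The median ratios of the luminal markers had the same signs and were smaller, at 0.45, -0.55 and 0.86. In pair 1 Krt19 (-1.22), Cldn7 (-0.42) and Krt8 (-0.41) were below 0, and the other luminal markers were above. The fibroblast ratio was highest in the pair where that of Slc2a6 was, and lowest in pair 1, where Slc2a6 was still 3.28-fold higher. The part of these cells in the Slc2a6 ratio was not tested.

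Markers of fat and muscle, the tissues that use Slc2a4 most, and of basal epithelium were also read. Of 11 adipocyte markers 4 were tested, with a sum of 1135 to 1792 in the channel labeled RANK-/- and 1058 to 1662 in the other, and Adipoq, Plin1, Lep, Cidec and Car3 were never well above background. The log2 ratios of that sum were -0.05, 0.11 and 0.53, and the median ratios of the tested markers were -0.02, -0.11 and 0.57. Of 8 skeletal muscle markers 3 were tested, with a sum of 1154 to 3043 against 1064 to 1736 and ratios of -0.32, -0.03 and 1.52. In pair 3 Mb read 2.21, but Acta1 -0.02 and Mylpf -0.23. Ckm, Myh1, Myh4 and Actn3 were never above background. The 6 basal epithelial markers, all tested, summed to 22666 to 25622 against 25083 to 42670, with ratios of -0.80, -0.30 and 0.03. Their median ratios were 0.14, 0.002 and 0.03. In pair 1 Krt14 (-1.81) and Krt5 (-1.41) were below 0, and Oxtr (1.84), Acta2 (0.89), Trp63 (0.28) and Myh11 (0.001) were above. The part of these cells in the Slc2a1 and Slc2a4 ratios was not tested. The sum of 8 endothelial markers, all tested, was 3498 to 4071 in the channel labeled RANK-/- and 2818 to 3855 in the other, with ratios of 0.08, -0.14 and 0.53. Of 8 neutrophil markers 4 were tested, with a sum of 44085 to 57506 against 45787 to 65959. The ratios of that sum were -0.20, -0.02 and -0.05, and Mmp8 was never above background. Single markers differed more in pair 1, where S100a8 read -3.99 and S100a9 -4.12 but Csf3r 0.42 and Mmp9 0.08. Their median ratios by pair were -1.96, -0.01 and -0.08.

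Around the transporters, the genes that trap, move or regulate them were read from lists drawn up by role. None passed limma's threshold, and each list is described by its counts and its median beside those of all genes, where 9.93% were above 0 in every pair and 9.65% below. Of 17 other sugar carriers 10 were tested, 1 was above 0 in all pairs and 0 below, with a median of 0.01. That one was Slc5a3, the sodium-coupled myo-inositol carrier, with ratios of 0.32, 0.93 and 1.12 (mean 0.79 ± 0.42). The sodium-coupled glucose carrier Slc5a1 had -0.37, -0.45 and 0.45.

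Of 17 genes of hexose phosphorylation and first metabolism 13 were tested, 2 were above 0 in all pairs and 1 below, with a median of 0.04. Hk1, the hexokinase that traps glucose in most tissues, had ratios of 0.52, 0.69 and 0.58 (mean 0.60 ± 0.09). Median centering turned its pair 3 to -0.25, where the median of all genes was -0.39. Hk2, the hexokinase of insulin-sensitive tissue and many tumors, had -1.66, 0.96 and 0.39. Khk, which phosphorylates fructose, had 0.45, -0.24 and -0.04. Hk2 and Slc2a1 had the same sign in pairs 1 and 3 and opposite signs in pair 2.

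Of 17 trafficking genes 16 were tested, 2 were above 0 in all pairs and 4 below, with a median of 0.01. Txnip, an arrestin that promotes the removal of GLUT1 and GLUT4 from the surface, was lower in the channel labeled RANK-/- in each pair, with ratios of -1.003, -0.67 and -0.91 (mean -0.86 ± 0.17), also with median centering. Its relative Arrdc4 had -0.66, -0.47 and -0.01, and pair 3 changed sign with no offset. Tbc1d4, which holds GLUT4 vesicles inside the cell until insulin acts, had 0.50, -0.25 and 0.45, and Lnpep, a peptidase of the same vesicles, had -0.31, 0.15 and 0.62. With median centering Arrdc4 was below 0 in all pairs too (-0.44, -0.73 and -0.58), where the medians of all genes were 0.13, -0.19 and -0.39.

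**Figure D5:**
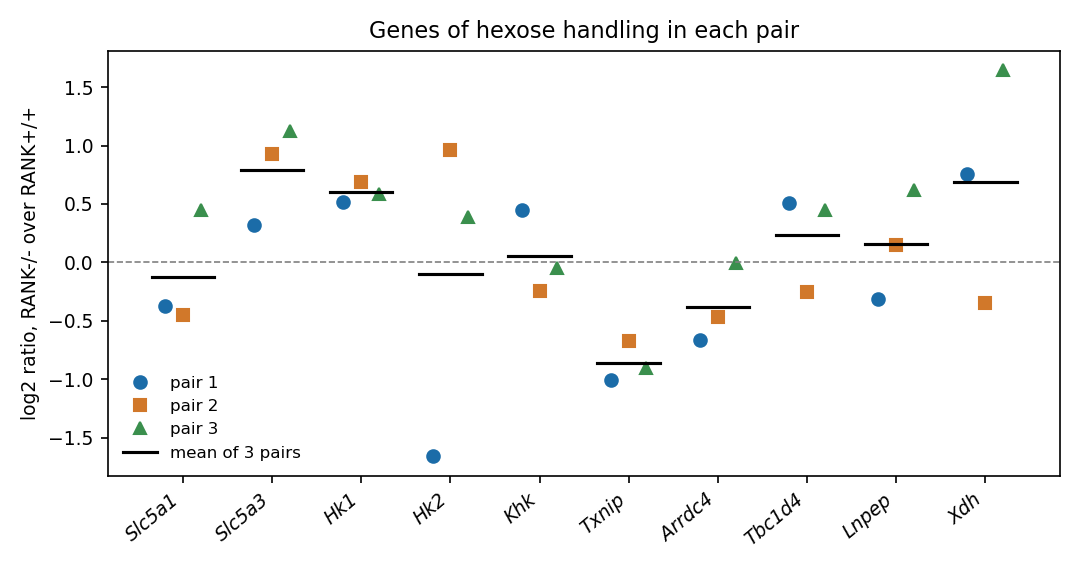
Log2 ratios (RANK-/- over RANK+/+, y axis) of 10 genes of hexose handling named by role, with symbols for pairs 1 to 3 and a black bar for the mean. Txnip lies below 0 and Hk1 and Slc5a3 above 0 in all pairs, while Hk2 runs from -1.66 to 0.96.

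Of 10 genes of inositol and urate handling 7 were tested, 1 was above 0 in all pairs and 0 below, with a median of 0.01. The one above 0 was Isyna1, the enzyme that makes inositol phosphate from glucose phosphate, with ratios of 0.46, 1.28 and 1.47, and it was named after its values were seen. Xdh, the enzyme that forms urate, had 0.75, -0.35 and 1.65. The 11 glycolysis genes and 11 hypoxia response genes, lists added after the Slc2a values had been seen, had medians of -0.04 and -0.26. Of the glycolysis genes 1 was above 0 in all pairs and 0 below, and of the hypoxia genes 0 were above and 1 below. By pair the hypoxia list read -0.88, 0.12 and -0.21, against -1.35, -0.89 and 0.37 for its target Slc2a1. The signs of the hypoxia list median and of Slc2a1 were alike in pair 1 and opposite in pairs 2 and 3, where the sign of Slc2a1 in pair 3 depended on the scaling. The part of hypoxia in the Slc2a1 ratios was not tested.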

How the data were processed

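Sorted CD45- tumor cell RNA of both genotypes was hybridized to 6 Agilent arrays of 62976 spots, all on 1 slide. The deposited values were spot intensity and local background per dye, extracted by the authors with Agilent Feature Extraction (version 10.7.3.1, per the submitters' processing notes). A value table with log2 ratios was also deposited by the authors; it correlated with the scanner ratios as RANK-/- over RANK+/+ and was used only as an alternative, the methods describing normexp correction, spatial and intensity loess and Aquantile scaling, with no offset stated. The methods describe dye swaps of each sample, but per the labels arrays A and B of a pair share their dyes, so dye bias is not removed within a pair.

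Median spot intensities were corrected with normexp (offset 50), loess and Aquantile normalized in limma 3.58.1 (R 4.3.3), and control spots and outlier spots (212 to 260 per array) were left out; 0 spots were saturated. Arrays A and B were averaged, giving 3 pair ratios. A probe was kept if, for either genotype, A and B both stood well above background in 2 or more pairs (30221 of 55681 probes; 28925 to 32745 probes passed per array and channel). The brightest kept probe stood for a gene. Probes were named through RefSeq accessions (28026 matched). Array number limits the precision. Ratios were tested with limma (intercept only) and with an exact rank product (Python 3.11.15). Both were also run on simulated ratios with a common SD for all genes, so those runs do not show how the tests behave on these arrays. Numbers pair RNAs through the shared array; deviations of same-numbered RNAs correlated at -0.03, -0.22 and -0.04.

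The family members and gene lists were chosen with earlier results of these data known. Named genes were all Slc2a genes, 10 pathway genes picked by role, the 5 genes nearest to Slc2a6, Tnfrsf11a, and any other only as stated. The results of 2 marker lists are not reported here. Alternatives covered background, scaling, filter, probe choice, technical arrays, dye and pairing.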

Additional observations from a re-analysis of the deposited data

How the results depend on the processing

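Slc2a6 kept its direction under all 17 alternatives, with means from 1.41 to 2.20 on the log2 scale, and from 1.64 to 2.13 when a pair was left out. Treating the 6 arrays as separate replicates left the value at 1.94 with an adjusted p of 0.011 by limma, and the pair as a random block left it at 1.94 with 0.0197. Technical arrays then count as replicates or share one spread, and 298 and 13 genes passed in place of 0. Without the replicate block, so that each channel was a sample of its own, the value was 1.94 and 0 genes passed limma, as with the pairing. The unadjusted limma p then rose from 0.00105 to 0.0432 for Slc2a6 and fell from 0.0937 to 0.0406 for Slc2a4. The rank product was not run without the pairing. The rank product count was 19, and 730 with 6 separate arrays, 36 with no filter, and 2 to 22 when a pair was left out. Of the other members, Slc2a8 reversed with median centering (-0.071), and Slc2a5 with the scanner's processed signals (-0.0082), on arrays A alone (-0.011) and without pair 3 (-0.028; other pairs left out, up to 0.030). With median centering the median of all genes was itself -0.138, and Slc2a8 lay 0.066 above it, against 0.151 with loess. The cause of the reversals was not tested. The dim Slc2a6 probe moved to 1.49 with no offset, 1.86 with processed signals and 1.32 in the authors' table. With 3 pairs the smallest 2-sided p of an exact sign-flip test of one gene is 0.25, and dim probes such as Slc2a5 cannot show small differences.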
